A study of Homo sapiens with 7 samples.

Results

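Interleukin-1 signalling, the NLRP3 inflammasome and the interleukin-13 receptors were followed through 10 genes on 7 arrays of human prostate cancer cells. The genes were IL1A and IL1B, IL1RN, IL1R1 and IL1RAP, NLRP3 and CASP1, IL6, and IL13RA1 and IL13RA2, out of 19775 genes on the array. They were chosen by measured values of these same arrays: large differences of IL1B and IL13RA2 between sublines grown from PC-3 and TEM4-18 were already known, and the other 8 genes were added for their place in the same pathways. Differences of these 10 genes against TEM4-18 in the PC-3-descended sublines, or in all sublines together, are therefore described without a test. The differences between the PC-3-descended and the TEM4-18-derived sublines use the same arrays and are described in the same way. The 10 genes had 27 probe sets naming them alone, of which 15 reached the filter on low signal, and 9 of the 10 genes passed it through at least 1 probe set. IL1RN did not.

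PC-3 is an established line from a bone metastasis of human prostate cancer, and every culture here descends from it, carries luciferase and was grown untreated in DMEM/F12 medium with 10% FBS. TEM4-18 (2 arrays) had been picked in culture for crossing a layer of human lung microvascular endothelial cells. The PC-3-descended sublines (3 arrays) were GS672.Ug from urogenital tissue after PC-3 was injected into a vein, and GS689.Li from liver and GS694.LAd from left adrenal after injection of JD549.Ki, itself a kidney-derived subline of PC-3. The TEM4-18-derived sublines (2 arrays) were GS683.LALN and JD1203.Lu, recovered from a lymph node and from lung after intravenous injection of TEM4-18. The host of all 5 sublines was the mouse. Each subline has 1 array, JD549.Ki is the parent of GS689.Li and of GS694.LAd, and arrays of PC-3 itself or of JD549.Ki were not analysed here. The labels conflict for JD1203.Lu, whose source name reads JD549.Ki, and for GS683.LALN, which its description places in the left axillary lymph node and the design text in the lung. The description of GS694.LAd terms its cells JD549.Ki, and that of GS689.Li leaves the name blank. Both are named here by their titles. The labels do not say that the TEM4-18 duplicates were separate cultures, so p-values measure only the spread of these arrays, which may be partly technical.

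Interleukin-1 exists as an alpha and a beta form that act on the same receptor. IL1R1 binds either ligand and recruits the accessory chain IL1RAP, the adaptor MYD88 and IRAK kinases, which leads to NF-kappaB activity and transcription of chemokines and cytokines such as IL6. The antagonist made from IL1RN occupies IL1R1 without signalling. Interleukin-1 beta is made as an inactive precursor, and the inflammasome, in which NLRP3 joins through the adaptor PYCARD to caspase-1, cuts it into its active form. IL13RA1 pairs with IL4R to signal for interleukin-13, whereas IL13RA2 binds interleukin-13 tightly and is commonly described as a decoy.

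The promoters of IL1B, NLRP3 and IL6 are shown because these genes span the precursor, the sensor that leads to its processing and a downstream target. Each run is the 250 bases before the RefSeq start site in GRCh38.p14, written 5′ to 3′ on the strand of the gene, with matches to searched motifs in capitals. They lie at chr2:112836780-112837029 on the minus strand for IL1B, chr1:247415923-247416172 on the plus strand for NLRP3, and chr7:22726950-22727199 on the plus strand for IL6.
IL1B: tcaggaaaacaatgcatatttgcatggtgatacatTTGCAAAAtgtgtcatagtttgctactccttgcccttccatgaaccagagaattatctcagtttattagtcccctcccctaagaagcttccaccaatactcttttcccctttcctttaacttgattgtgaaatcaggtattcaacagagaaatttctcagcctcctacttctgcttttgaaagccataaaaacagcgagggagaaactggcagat
NLRP3: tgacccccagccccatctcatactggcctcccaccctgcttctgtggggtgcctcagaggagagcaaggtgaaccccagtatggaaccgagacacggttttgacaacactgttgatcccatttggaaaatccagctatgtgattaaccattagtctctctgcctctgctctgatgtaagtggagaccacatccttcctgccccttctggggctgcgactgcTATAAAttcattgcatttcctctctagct
IL6: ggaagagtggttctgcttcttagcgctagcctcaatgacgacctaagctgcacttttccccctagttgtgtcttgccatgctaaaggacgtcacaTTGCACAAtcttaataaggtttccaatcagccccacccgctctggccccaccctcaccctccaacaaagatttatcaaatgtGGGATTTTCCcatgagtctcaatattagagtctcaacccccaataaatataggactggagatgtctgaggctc
The motifs searched on both strands were the NF-kappaB consensus, AP-1 (TGANTCA), C/EBP (TTGCNNAA), CRE (TGACGTCA) and the TATA box (TATAAA). The IL1B window held a C/EBP match from 215 to 208 bases before the start. The NLRP3 window held a TATA box 29 to 24 bases before it. The IL6 window held an NF-kappaB match 73 to 64 bases and a C/EBP match 155 to 148 bases before the start, both long known in studies of this promoter. Among 35116 RefSeq windows of the same length, 9.96% held the NF-kappaB consensus, 6.57% AP-1, 9.05% C/EBP, 1.65% CRE and 10.7% the TATA box. A match describes letters in these windows and not binding. RefSeq windows were found for 8 of the 10 genes, and those of IL13RA2 and CASP1 were not used here.

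Values below are MAS5 signals, which are linear intensities scaled to the same trimmed mean of 1500.2 on every array, with array medians from 239.08 to 297.25. Differences are on the log2(signal + 46.942) scale, where the offset is the 20th percentile of all values, and errors are limma standard errors. The offset makes folds of weak genes smaller than their signal ratios. A gene passed the filter where a probe set's mean log2 value reached the 40th percentile, equal to a signal of 143.38. Signals of different probe sets are not on 1 scale, so no gene is ranked against another. Of 13618 genes tested, 538 lay 2-fold apart between the TEM4-18 duplicates and 600 between GS689.Li and GS694.LAd.

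IL1B was higher in the PC-3-descended sublines than in TEM4-18. Its signal (probe set 205067_at) was 755 and 634 in TEM4-18, 3157 in GS672.Ug, 11551 in GS689.Li, 19310 in GS694.LAd, 530 in GS683.LALN and 1941 in JD1203.Lu. All 3 PC-3-descended sublines lay above both TEM4-18 arrays, and the pair sharing the parent JD549.Ki lay far above GS672.Ug. The 2 TEM4-18-derived sublines fell on either side of their parent. The difference of the PC-3-descended sublines from TEM4-18 was 3.60 ± 0.71 (SE, n = 3 and 2), a 12.1-fold difference. It was 3.04 without GS694.LAd and 4.34 without GS672.Ug. The TEM4-18-derived sublines differed from TEM4-18 by 0.54 ± 0.78, with a limma adjusted p of 0.852.

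The second probe set of IL1B gave the same order of the arrays, with a wider gap between GS683.LALN and its parent. Its signals (39402_at) were 638 and 603 in TEM4-18, 2593, 8825 and 15096 in GS672.Ug, GS689.Li and GS694.LAd, 355 in GS683.LALN and 2065 in JD1203.Lu. IL1B is best known from monocytes and macrophages, so leukocyte markers were read beside it. Of 8 such markers with a probe set of their own, 3 passed the filter (CSF1R, FCER1G and ITGAM), and no marker exceeded 553 on any array. PTPRC, the pan-leukocyte marker CD45, had a highest signal of 229, and CD14 had 141, both in GS694.LAd, the line of highest IL1B. TYROBP, below the filter, read 104 to 138 in the PC-3-descended sublines and 19.8 to 55.0 on the other arrays. FCER1G read 360 and 369 in the pair sharing JD549.Ki and 169 to 268 elsewhere. CSF1R and ITGAM were highest in JD1203.Lu (553 and 305), CD163 in TEM4-18 replicate 2 (91.4) and LYZ in GS672.Ug (210). The part of such markers in the difference of IL1B was not tested. The summed marker signal was 911 to 1122 in TEM4-18, 1020 to 1395 in the PC-3-descended and 1011 to 1307 in the TEM4-18-derived sublines, ranges that overlap.

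IL1A, which lies beside IL1B on chromosome 2, varied little. Its signal was 379 and 486 in TEM4-18, 584, 553 and 469 in GS672.Ug, GS689.Li and GS694.LAd, 689 in GS683.LALN and 483 in JD1203.Lu. The groups overlapped. The difference was 0.29 ± 0.27 in the PC-3-descended sublines and 0.39 ± 0.30 in the TEM4-18-derived ones (limma adjusted p = 0.707). A second IL1A probe set stayed below the filter, and its highest signals, 254 in GS694.LAd and 306 in JD1203.Lu, stood above its values of 18.5 to 64.0 on the other 5 arrays.

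The antagonist gene IL1RN could not be measured with confidence. None of its 5 probe sets reached the filter. The strongest, 212659_s_at, read 117 and 148 in TEM4-18, 329 in GS672.Ug, 63.8 in GS689.Li, 146 in GS694.LAd, 36.7 in GS683.LALN and 162 in JD1203.Lu. These groups overlapped, and the probe sets did not share an order of the arrays.

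The ligand-binding receptor chain IL1R1 was highest in GS672.Ug and lowest in GS683.LALN. Its signal (202948_at) was 257 and 243 in TEM4-18, 681 in GS672.Ug, 343 in GS689.Li, 336 in GS694.LAd, 80.5 in GS683.LALN and 270 in JD1203.Lu. The PC-3-descended sublines lay above both TEM4-18 arrays, by 0.69 ± 0.47 on average, although GS672.Ug carried most of this and the difference was 0.38 without it. The TEM4-18-derived sublines differed by -0.56 ± 0.52 (limma adjusted p = 0.755), a value that came from GS683.LALN, since it was 0.09 without that line. A second IL1R1 probe set, 215561_s_at, stayed below the filter and differed by 0.02 in the PC-3-descended sublines. It read 69.8 and 168 in TEM4-18, 173, 117 and 67.6 in GS672.Ug, GS689.Li and GS694.LAd, 63.3 in GS683.LALN and 47.6 in JD1203.Lu. The accessory chain IL1RAP read 537 and 675 in TEM4-18, 1015, 828 and 304 in GS672.Ug, GS689.Li and GS694.LAd, 781 in GS683.LALN and 298 in JD1203.Lu. The difference of GS694.LAd from GS689.Li, its relative through JD549.Ki, was -1.32 in IL1RAP, larger in size than the mean differences from TEM4-18 of 0.08 ± 0.51 and -0.28 ± 0.56 (limma adjusted p = 0.902 for the TEM4-18-derived sublines). The first of these turned to -0.11 with each array centred on its median. These values are of probe set 205227_at. A second IL1RAP probe set that passed, 210233_at, set GS694.LAd between the TEM4-18 duplicates. It read 223 and 436 in TEM4-18, 281, 432 and 344 in GS672.Ug, GS689.Li and GS694.LAd, 290 in GS683.LALN and 176 in JD1203.Lu.

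NLRP3, the sensor of the inflammasome, was higher than TEM4-18 in each of the 5 in vivo sublines. Its signal (207075_at) was 37.8 and 21.0 in TEM4-18, 237 in GS672.Ug, 410 in GS689.Li, 1072 in GS694.LAd, 268 in GS683.LALN and 1171 in JD1203.Lu. No subline overlapped with TEM4-18, where both signals lay under the offset and under the filter, so the gene passed the filter only through the sublines. The difference was 2.79 ± 0.68 in the PC-3-descended and 3.03 ± 0.74 in the TEM4-18-derived sublines. The second of these did not pass in limma (adjusted p = 0.25, and 0.383 with no filter), nor under any alternative that kept the gene. As the gene was among those tested only through the sublines in which it is high, both differences are read as descriptions. The size rests on the offset: with no offset the difference was 4.06 in the PC-3-descended sublines, and with the median of all values as offset it was 1.37.

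The other probe sets of NLRP3 were weaker and gave a less even pattern. Neither reached the filter. 216015_s_at read 7.38 and 14.6 in TEM4-18, 50.2 to 255 in the PC-3-descended sublines, 15.6 in GS683.LALN and 503 in JD1203.Lu. It was highest in JD1203.Lu, as was 207075_at, while GS683.LALN hardly differed from TEM4-18. The highest signal of 216016_at was 81.0, in GS689.Li.

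CASP1, the protease of the inflammasome, was close to level across the lines on its strongest probe set. The signal of 211366_x_at was 479 and 540 in TEM4-18, 714, 543 and 516 in GS672.Ug, GS689.Li and GS694.LAd, 535 in GS683.LALN and 637 in JD1203.Lu. The differences were 0.19 ± 0.25 in the PC-3-descended sublines, or -0.01 with each array centred on its median, and 0.18 ± 0.28 in the TEM4-18-derived ones (limma adjusted p = 0.856). Both CASP1 probe sets that passed carry the suffix x_at, which marks probes that can match other transcripts, and they disagreed in JD1203.Lu, where 209970_x_at read 65.9 against 248 and 272 in TEM4-18. The 3 remaining probe sets never exceeded 91.1. PYCARD, the adaptor that joins NLRP3 to CASP1, did not pass the filter and was named after its values were seen: it read 115 and 117 in TEM4-18, 885 in GS672.Ug, 392 in JD1203.Lu and 18.6 to 41.9 in the other 3 lines. GS694.LAd, with the second-highest NLRP3 signal, thus had a low PYCARD signal.

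The signals of IL6 ran from 233 to 544, beside array medians of 239.08 to 297.25. Its signal was 320 and 233 in TEM4-18, 284, 392 and 422 in GS672.Ug, GS689.Li and GS694.LAd, 544 in GS683.LALN and 379 in JD1203.Lu. The 2 TEM4-18-derived sublines lay above both parental arrays and the PC-3-descended sublines overlapped with them. The differences were 0.35 ± 0.32 and 0.65 ± 0.35, the latter with a limma adjusted p of 0.594. IL6 was highest in GS683.LALN, and GS694.LAd and GS689.Li, the lines of highest IL1B, came next.

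IL13RA2, the high-affinity interleukin-13 receptor, separated the PC-3-descended sublines from all 4 other arrays. Its signal was 7.64 and 79.2 in TEM4-18, 511 in GS672.Ug, 1550 in GS689.Li, 768 in GS694.LAd, 161 in GS683.LALN and 18.6 in JD1203.Lu. The lowest PC-3-descended value stood above the highest of the rest. JD1203.Lu fell between the TEM4-18 duplicates, which themselves differed by 1.21 on the log2 scale. The gene has 1 probe set and passed the filter through the sublines in which it was high. The difference from TEM4-18 was 3.44 ± 0.65 (10.8-fold) in the PC-3-descended sublines, 5.11 with no offset and 1.88 with the offset at the median. It was 2.83 without TEM4-18 replicate 1 and 4.04 without replicate 2. The TEM4-18-derived sublines differed from TEM4-18 by 0.49 ± 0.71 (limma adjusted p = 0.851), and this value turned to -0.34 without GS683.LALN and to -0.11 without TEM4-18 replicate 1.

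IL13RA1, the signalling chain, did not share this pattern. Its signal was 4951 and 4497 in TEM4-18, 3706, 4546 and 4060 in GS672.Ug, GS689.Li and GS694.LAd, 5863 in GS683.LALN and 4801 in JD1203.Lu. The groups overlapped, with differences of -0.20 ± 0.16 and 0.17 ± 0.18 (limma adjusted p = 0.8 for the TEM4-18-derived sublines). The direction in the PC-3-descended sublines turned to 0.05 when all 4 probe sets were averaged.

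**Figure D1:**
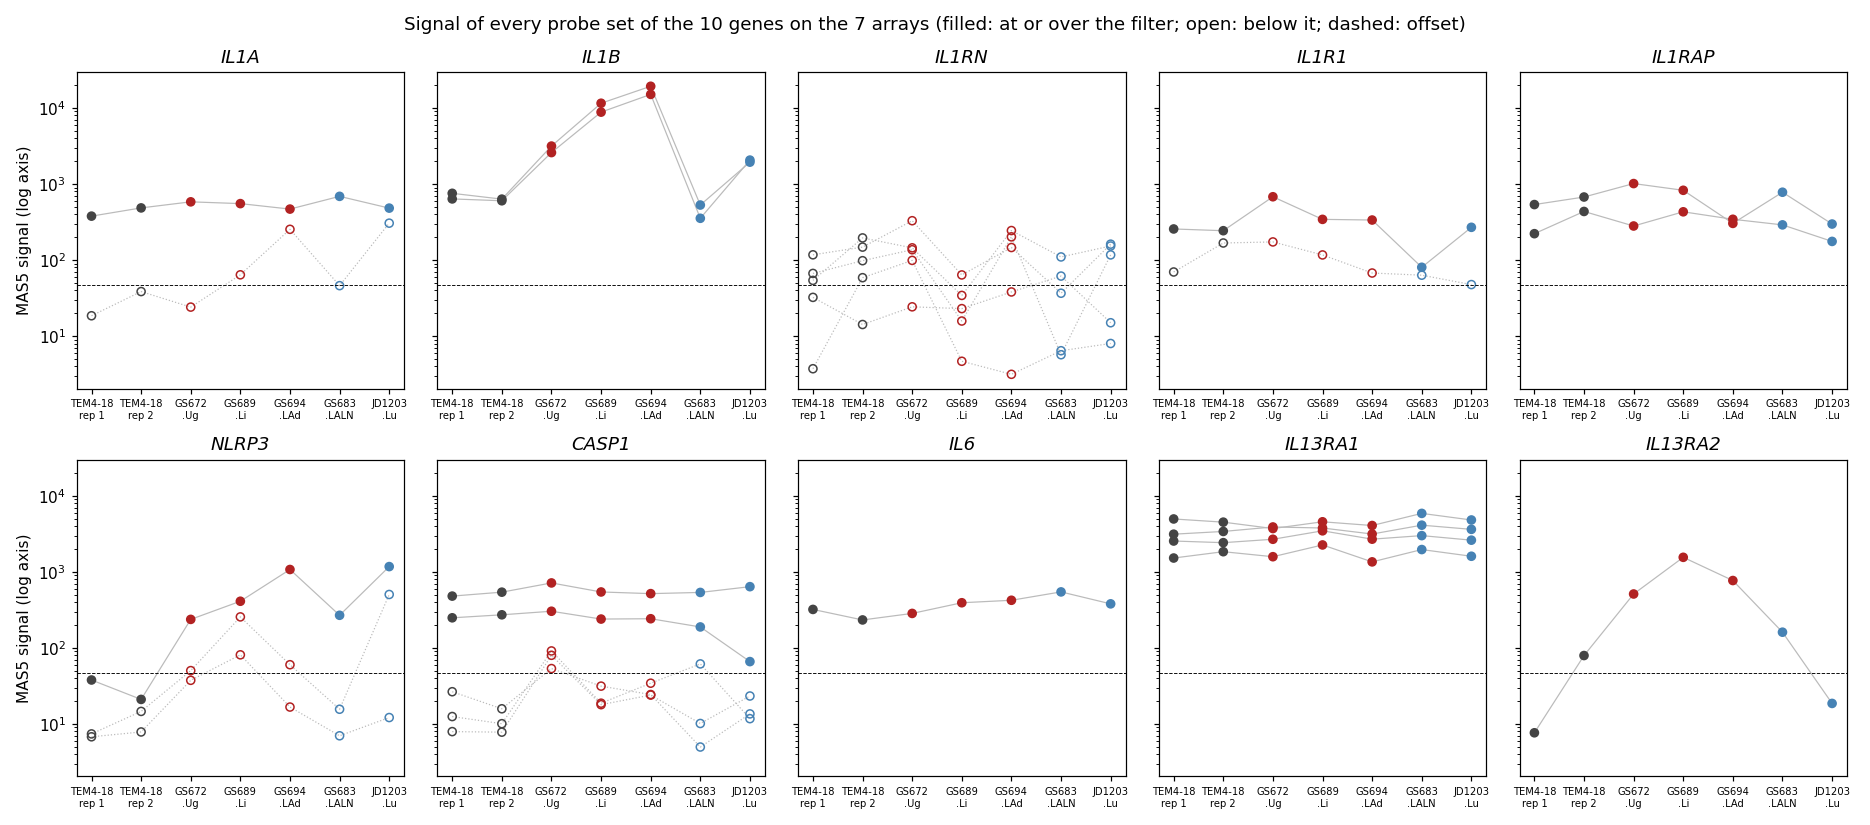
MAS5 signal (log axis) of all 27 probe sets of the 10 genes on each of the 7 arrays; grey, red and blue points are TEM4-18, PC-3-descended and TEM4-18-derived arrays, lines join the points of 1 probe set, filled points belong to probe sets that passed the filter and the dashed line is the offset of 46.942. Both IL1B probe sets climb to 15096 and 19310 in GS694.LAd, NLRP3 is above TEM4-18 in all 5 sublines, and IL13RA2 is highest in GS689.Li.

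**Figure D2:**
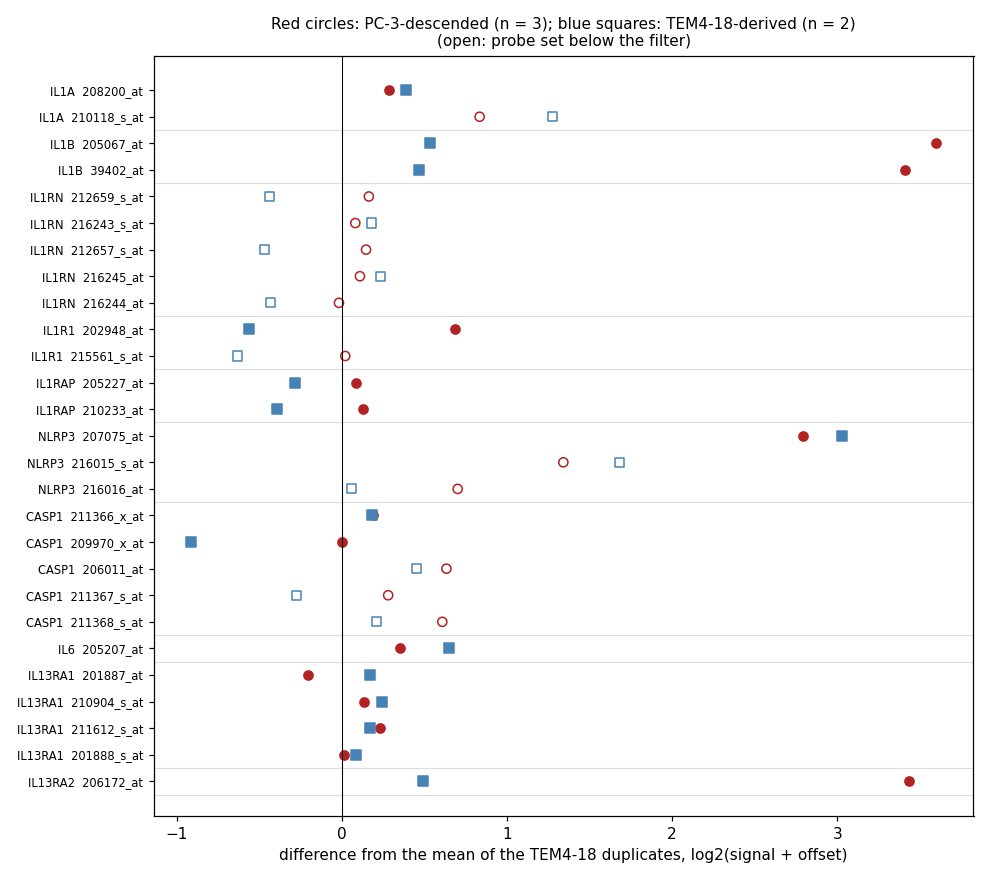
Difference from the mean of the TEM4-18 duplicates, log2(signal + offset), of each of the 27 probe sets, as means of the 3 PC-3-descended (red circles) and the 2 TEM4-18-derived arrays (blue squares); open symbols are probe sets below the filter and no error is drawn. IL1B at 3.60 and IL13RA2 at 3.44 show a gap between the groups, while the main NLRP3 probe set has 2.79 and 3.03.

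The counts of calls set these genes beside the array as a whole. In the contrast of the PC-3-descended sublines with TEM4-18, limma called 3.29% of the 13618 genes (312 higher and 136 lower), and 2 of the 9 members tested, IL1B and IL13RA2, were among them; both were known beforehand, so nothing is read from that share. Centring each array on its median log2 value shifts the median difference of all genes in this contrast by -0.19 and turns the split to 204 higher and 303 lower, while IL1B keeps a difference of 3.41, NLRP3 2.60 and IL13RA2 3.24. The contrast between the sublines, with 289 higher and 218 lower, becomes 180 and 445 under the same centring. In the TEM4-18-derived sublines 0.0661% of genes were called and 0 of the 9 members. An unadjusted p under 0.05 was found for 1318 of the 13618 genes there and for 1 member, NLRP3, from which nothing is read since it passed the filter only through the sublines. Between the PC-3-descended and TEM4-18-derived sublines 3.72% of genes were called. The 1 member among them, IL13RA2, was chosen with this pattern known and passed the filter through the sublines in which it was high. Nothing is therefore read from its call, and its difference of 2.95 ± 0.65 is a description. IL1B differed there by 3.06 ± 0.71, IL1R1 by 1.25 ± 0.47 and NLRP3 by -0.24 ± 0.68. For all 5 in vivo sublines against TEM4-18 limma called 0% of genes, with 1122 at an unadjusted p under 0.05. Of these, 1 was a member, again NLRP3, and nothing is read from it for the same reason as in the TEM4-18-derived sublines. In that contrast NLRP3 differed by 2.89 ± 0.62, IL1B by 2.37 ± 1.13 and IL13RA2 by 2.26 ± 1.07, all as descriptions. An unadjusted limma p under 0.05 was found for 2392 of the 13618 genes between the PC-3-descended sublines and TEM4-18. Between the PC-3-descended and TEM4-18-derived sublines the number was 2650. All these contrasts share the TEM4-18 arrays or the sublines.

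Line by line, with 1 array each and no test, a gene was counted where it lay 2-fold or more from the mean of TEM4-18 and outside both duplicates. By this count 7.88% of genes differed in GS672.Ug, and 4 of the 9 members, IL1B, IL1R1, NLRP3 and IL13RA2, were higher. In GS689.Li (9.61% of genes) and GS694.LAd (10%) the same 3 members were higher, IL1B, NLRP3 and IL13RA2. In GS683.LALN (5.4%) NLRP3 and IL13RA2 were higher and IL1R1 lower. In JD1203.Lu (8.31%) IL1B and NLRP3 were higher. NLRP3 was thus counted in all 5 lines, IL1B in 4 and IL13RA2 in 4. IL1B and IL13RA2 were chosen with such differences known, and NLRP3 and IL13RA2 passed the filter through the sublines in which they are high. Nothing is therefore read from the member counts beside the shares of all genes.

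The wider interleukin-1 family showed a single further gene that passed. Of 11 ligand and antagonist genes, 7 were tested, and IL37 was the 1 gene besides IL1B, which was chosen for this difference, that was called higher in the PC-3-descended sublines. The list median was 0.29 against 0.05 for all genes, or 0.09 against -0.15 with each array centred on its median. IL37 encodes an anti-inflammatory member of the family and is the tested gene next to IL1B on the side away from IL1A. Its signal was 54.7 and 200 in TEM4-18, 1587, 2146 and 1860 in GS672.Ug, GS689.Li and GS694.LAd, 240 in GS683.LALN and 786 in JD1203.Lu. All 5 sublines lay above TEM4-18. IL37 rose by 3.58 ± 0.49 in the PC-3-descended sublines (limma adjusted p = 0.00743), a call that was lost without TEM4-18 replicate 1 (2.94, adjusted p = 0.0984) and that rests on an x_at probe set. In the TEM4-18-derived sublines it differed by 1.62 ± 0.54 (limma adjusted p = 0.403). The mean log2 value of IL37 in TEM4-18 lay below the filter, so the gene passed it through the sublines in which it is high. Both differences are therefore read as descriptions, as for NLRP3. None of the 9 receptor and inhibitor genes tested of 12 was called by limma in any contrast (0 to 2 of them at an unadjusted p under 0.05). Their median in the PC-3-descended sublines was 0.19, or -0.004 with median centring. Besides IL1R1, IL1RL1, the receptor for interleukin-33, was named for its size, at 1.25 ± 0.53 in the TEM4-18-derived sublines (limma adjusted p = 0.489).

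Among 18 tested genes of 22 for signalling below the receptor, 1 was called. PELI2, an E3 ubiquitin ligase that acts on IRAK complexes, read 1503 and 1662 in TEM4-18, 58.3, 182 and 354 in GS672.Ug, GS689.Li and GS694.LAd, 1629 in GS683.LALN and 2464 in JD1203.Lu. The 3 PC-3-descended sublines lay below all 4 other arrays. PELI2 fell by 2.93 ± 0.48 against TEM4-18 (limma adjusted p = 0.0161) and by 3.27 ± 0.48 against the TEM4-18-derived sublines (limma adjusted p = 0.00923). The first call was lost without TEM4-18 replicate 1 or 2 (adjusted p = 0.147 and 0.176) and without GS689.Li (0.0641), and both calls with no intensity trend (0.0649 and 0.0513), while the differences from TEM4-18 stayed between -3.39 and -2.43 over the arrays left out. The median of the list was -0.02, or -0.21 with median centring. MYD88 differed by 0.19 ± 0.17 and IRAK1 by -0.15 ± 0.12, and neither was called.

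NF-kappaB and interleukin-1 response genes were mixed. Of 33 genes 25 were tested, and in the PC-3-descended sublines 2 were called higher and 1 lower, with 18 of 25 positive and a median of 0.36, or 0.17 with median centring. CXCL8, the neutrophil chemokine interleukin-8, read 779 and 1255 in TEM4-18, 2135, 8008 and 8916 in GS672.Ug, GS689.Li and GS694.LAd, 1269 in GS683.LALN and 1250 in JD1203.Lu. Like IL1B, it was highest in the pair that shares JD549.Ki. CXCL8 rose by 2.38 ± 0.53 (limma adjusted p = 0.0475), on an x_at probe set. This call stood at the threshold and was kept in 5 of 17 alternatives. It was lost on leaving out TEM4-18 replicate 1 (adjusted p = 0.378) or 2 (0.199), GS689.Li (0.171), GS694.LAd (0.162), GS683.LALN (0.0564) or JD1203.Lu (0.0554), with differences of 2.02 to 2.71, and with GS689.Li and GS694.LAd averaged (2.05, 0.164).

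CXCL6, a related chemokine, read 1146 and 1010 in TEM4-18, 1865, 3212 and 2420 in GS672.Ug, GS689.Li and GS694.LAd, 850 in GS683.LALN and 784 in JD1203.Lu. The PC-3-descended sublines lay above the rest. It rose by 1.15 ± 0.24 against TEM4-18 (limma adjusted p = 0.0373) and by 1.53 ± 0.24 against the TEM4-18-derived sublines (limma adjusted p = 0.0117). NFKBIA encodes the NF-kappaB inhibitor that NF-kappaB itself induces, and it went the other way: 10646 and 10312 in TEM4-18, 5555, 6117 and 5173 in GS672.Ug, GS689.Li and GS694.LAd, 11912 in GS683.LALN and 7790 in JD1203.Lu. It fell by 0.90 ± 0.19 (limma adjusted p = 0.0368). Against TEM4-18, CXCL6 and NFKBIA were not called without TEM4-18 replicate 1 (adjusted p = 0.238 and 0.316) or 2 (0.312 and 0.263), GS689.Li (0.113 and 0.09) or GS694.LAd (0.129 and 0.137). With GS689.Li and GS694.LAd averaged, both missed the threshold (0.108 and 0.105), as they did with no intensity trend (0.0798 and 0.108). CXCL6 also missed it with no filter (0.0614) and with median centring (0.059), and kept this call in 8 of 17 alternatives. Against the TEM4-18-derived sublines CXCL6 was not called without GS694.LAd (adjusted p = 0.057) or with no intensity trend (0.0508).

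Some response genes followed other lines, and these were named after their values were seen. CXCL3 read 99.6 and 130 in TEM4-18 and 240 to 553 in the 5 sublines, with both TEM4-18-derived lines above all PC-3-descended ones. Its differences were 1.88 ± 0.35 in the TEM4-18-derived (limma adjusted p = 0.143) and 1.10 ± 0.32 in the PC-3-descended sublines (adjusted p = 0.117), and neither passed. CSF3, the granulocyte growth factor, read 39.1 and 30.5 in TEM4-18, 30.2 in GS672.Ug, 332 in GS689.Li, 490 in GS694.LAd, 117 in GS683.LALN and 650 in JD1203.Lu. GS672.Ug did not share the high values of the other 4 sublines.

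The inflammasome list as a whole did not move with NLRP3. Of 22 genes 16 were tested, 0 were called by limma in any of the 4 contrasts (1 to 5 at an unadjusted p under 0.05), and the median was 0.06 in the PC-3-descended and 0.10 in the TEM4-18-derived sublines, the former turning to -0.14 with median centring. Besides NLRP3, the gene named for its size was TXNIP, a redox protein reported to bind NLRP3. It read 3126 and 2987 in TEM4-18, 2596, 2433 and 3752 in GS672.Ug, GS689.Li and GS694.LAd, 4684 in GS683.LALN and 6105 in JD1203.Lu. TXNIP differed by 0.80 ± 0.24 in the TEM4-18-derived sublines (limma adjusted p = 0.346).

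**Figure D3:**
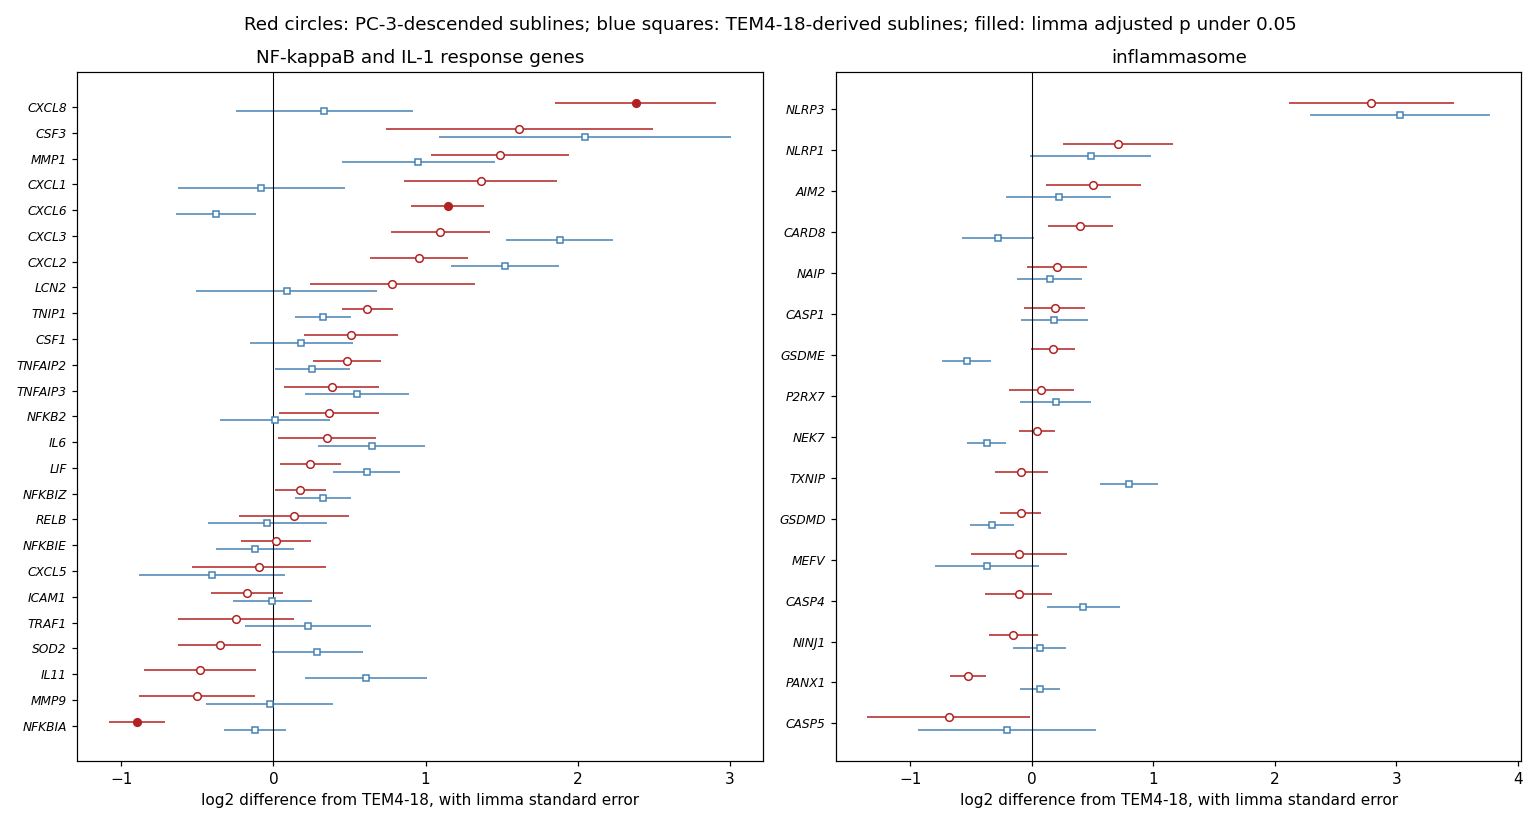
Log2 difference from TEM4-18 with limma standard error for the tested NF-kappaB and interleukin-1 response genes (left, 25 genes) and inflammasome genes (right, 16 genes), in the PC-3-descended (red circles, n = 3) and TEM4-18-derived sublines (blue squares, n = 2); filled symbols have a limma adjusted p under 0.05. CXCL8 (2.38), CXCL6 (1.15) and NFKBIA (-0.90) are the filled points, and in the inflammasome panel NLRP3 lies apart from the other genes in both groups.

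In the interleukin-4 and interleukin-13 list, 14 of 17 genes were tested, and IRS2 was the 1 gene besides IL13RA2, which was chosen for this difference, that was called higher in the PC-3-descended sublines. The list median was 0.01, or -0.18 with median centring. IRS2 encodes an adaptor used by insulin, IGF and interleukin-4 receptors. It read 186 and 164 in TEM4-18, 841, 927 and 1408 in GS672.Ug, GS689.Li and GS694.LAd, 74.0 in GS683.LALN and 157 in JD1203.Lu. As for IL13RA2, the PC-3-descended values lay above all others. IRS2 rose by 2.28 ± 0.36 against TEM4-18 (limma adjusted p = 0.013) and by 2.78 ± 0.36 against the TEM4-18-derived sublines (limma adjusted p = 0.00472). The call against TEM4-18 was lost without TEM4-18 replicate 1 (adjusted p = 0.136) or 2 (0.15), GS689.Li (0.0582) or GS694.LAd (0.0733), and with those sublines averaged (0.0541). IL4R, the partner of IL13RA1, differed by 0.53 ± 0.35 and STAT6 by -0.23 ± 0.22, and neither was called.

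In the interleukin-6 family, 13 of 16 genes were tested and 0 were called by limma against TEM4-18 in the PC-3-descended sublines (1 at an unadjusted p under 0.05), where the median was 0.15, or -0.04 with median centring. SOCS3, a feedback inhibitor of cytokine receptors that also stands in the interleukin-4 and interleukin-13 list, was called between the sublines. It read 2883 and 2355 in TEM4-18, 2120, 1204 and 1245 in GS672.Ug, GS689.Li and GS694.LAd, 2958 in GS683.LALN and 4794 in JD1203.Lu. It was lower in the PC-3-descended than in the TEM4-18-derived sublines by 1.33 on the log2 scale (value -1.33 ± 0.29, limma adjusted p = 0.0428), with TEM4-18 between them. The call was lost without TEM4-18 replicate 1 (adjusted p = 0.0934) or 2 (0.0931), GS689.Li or GS694.LAd (0.154 each) or JD1203.Lu (-0.98, 0.151). It was also lost with GS689.Li and GS694.LAd averaged (0.147), no filter (0.0633), the mean of the probe sets (0.145) and no intensity trend (0.109), and was kept in 7 of 17 alternatives. IL6ST, the shared signalling chain, differed by 0.18 ± 0.16 from TEM4-18, and IL6R by -0.17 ± 0.21.

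Every call of IL37, PELI2, CXCL8, CXCL6, NFKBIA, IRS2 and SOCS3 given here was lost when JD1203.Lu was counted with the PC-3-descended sublines, as its source name would have it (limma adjusted p from 0.0565 to 0.843). IL1B then differed from TEM4-18 by 3.06, NLRP3 by 3.10 and IL13RA2 by 2.49. A pair of endothelial markers also moved with the PC-3-descended sublines. KDR read 998 and 763 in TEM4-18, 6380, 4792 and 4535 in GS672.Ug, GS689.Li and GS694.LAd, 318 in GS683.LALN and 1327 in JD1203.Lu. PECAM1 read 604 and 777 in TEM4-18, and 1372, 1635 and 1903 in the PC-3-descended sublines. The summed signal of 7 endothelial markers was 1784 to 1801 in TEM4-18, 6805 to 8059 in the PC-3-descended and 1622 to 2700 in the TEM4-18-derived sublines. The other 5 did not pass the filter, and CDH5, which defines endothelium, had a highest signal of 88.2, in TEM4-18. The part of these markers in the differences of IL1B and IL13RA2 was not tested. As for the leukocyte markers, the sum adds probe sets that are not on 1 scale and does not address mouse cells. The keratin and vimentin signals of PC-3 were high in all lines, with KRT18 from 29052 to 38315, while the epithelial cadherin CDH1 stayed below the filter.

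The chromosomal neighbours of IL1B, IL13RA2 and NLRP3 were read in the same contrast. Around IL1B, 5 tested genes on each side differed by -0.47 to 0.90 in the PC-3-descended sublines, apart from IL37 at 3.58. IL13RA2 lies on the X chromosome, and its 10 neighbours lay between -0.21 and 1.44. The adjacent ALG13, of the asparagine-linked glycosylation pathway, was called at 0.68 ± 0.14. CHRDL1 (1.44 ± 1.21) and DOCK11 (1.20 ± 0.30) differed by more but were not called, and the adjacent PLS3 had 0.03 ± 0.11. IL13RA1 is the fifth tested gene on that side. Around NLRP3 on chromosome 1 the 10 neighbours lay between -0.80 and 0.54, and 0 of them were called by limma, with 4 at an unadjusted p under 0.05. That count was 2 of 10 around IL1B, 2 of 10 around IL13RA2 and 2392 of the 13618 genes tested, and nothing is read from it.

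**Figure D4:**
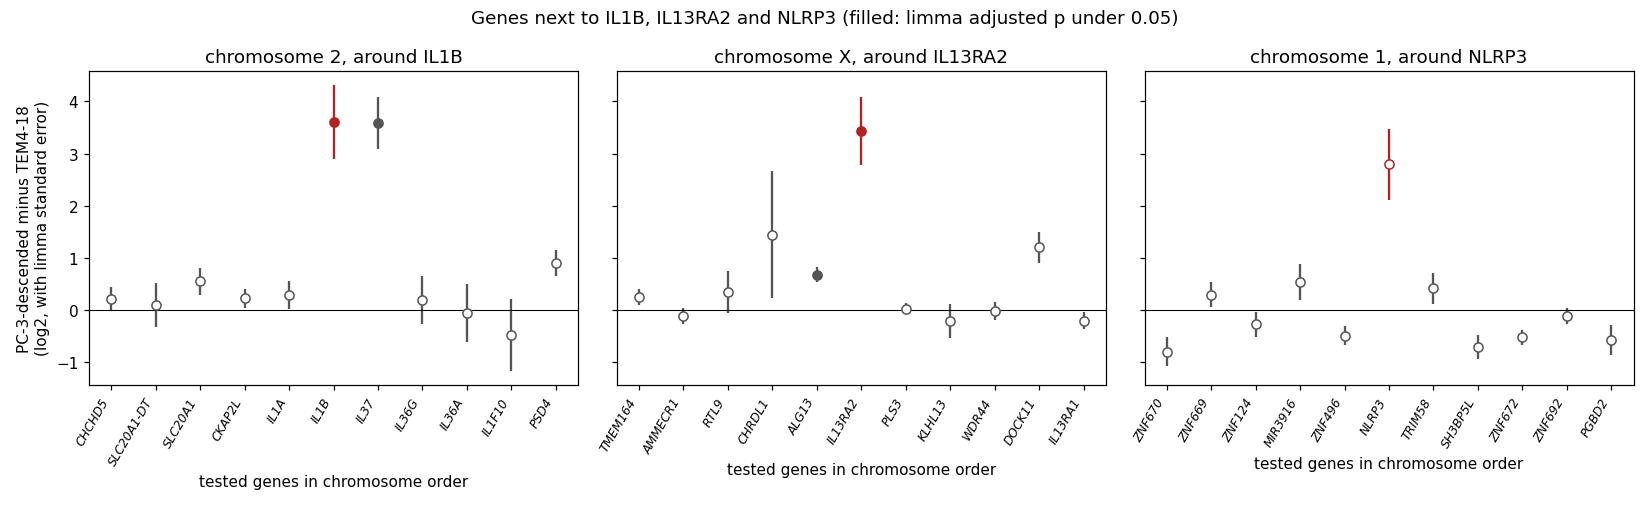
Difference between PC-3-descended sublines (n = 3) and TEM4-18 (n = 2), log2 with limma standard error, for the 5 tested genes on each side of IL1B, IL13RA2 and NLRP3 in chromosome order (spacing not to scale); red marks the named gene and filled points have a limma adjusted p under 0.05. IL37 at 3.58 stands beside IL1B at 3.60, while the 10 neighbours of NLRP3 lie from -0.80 to 0.54.

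The genes whose log2 values tracked each member most closely over the 7 arrays were listed as a description, since these arrays share groups and parents. For IL1B they were WARS1, AKR1C1 and DSTYK (Pearson r = 0.992 each), MARVELD1 (0.991) and TBC1D7 (0.989), and 377 genes had r over 0.9. With the mean of the probe sets, 2 of these 5 remained among the closest 5. AKR1C1, a steroid-reducing enzyme, read 469 and 460 in TEM4-18, 1707, 5391 and 6069 in GS672.Ug, GS689.Li and GS694.LAd, 531 in GS683.LALN and 1176 in JD1203.Lu. This is the order of IL1B on the sublines. For IL13RA2 they were TDP1 (0.988), MISP (0.985), YY1 (0.982), SHTN1 (0.98) and BLOC1S4 (0.978), with 208 genes over 0.9, and 3 of these 5 remained with the mean of the probe sets and with no filter. The size of the changes did not have to match: TDP1 ranged from 5437 to 9568.

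For NLRP3 the closest gene was LY96, which encodes the co-receptor MD-2 of the endotoxin receptor TLR4, at r = 0.99, followed by OSER1-DT (0.973) and LOC100506858 (0.972). LY96 read 227 and 224 in TEM4-18, 485, 556 and 919 in GS672.Ug, GS689.Li and GS694.LAd, 580 in GS683.LALN and 928 in JD1203.Lu. As for NLRP3, all 5 sublines stood above TEM4-18 and the highest were JD1203.Lu and GS694.LAd. Among the members themselves IL1B had r = 0.795 with IL13RA2, 0.665 with NLRP3, 0.194 with IL6 and -0.03 with IL1A. The strongest relation was negative, between IL1R1 and IL13RA1 (r = -0.94), on the probe sets that stood for them (202948_at and 201887_at). On these, GS683.LALN was lowest in the first and highest in the second and GS672.Ug the reverse. None of the other IL13RA1 probe sets was lowest in GS672.Ug. 210904_s_at read 3885 there against 3123 and 3393 in TEM4-18, and 211612_s_at and 201888_s_at were highest in GS689.Li (3459 and 2254). The relation is thus one of these probe sets.

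For the other members the 3 closest genes were POLR2K (0.979), CPA4 (0.978) and WLS (0.946) for IL1A, and SERTAD4 (0.984), FAM185A (0.983) and TM7SF2 (0.983) for IL1R1. FBXO27 (0.972), PRODHLP and ZNF345 (0.968 each) were closest to IL1RAP, and RNFT1 (0.959), TMEM44-AS1 (0.954) and RAB30 (0.953) to CASP1. IL6 was followed by LMO7DN (0.982), CAB39L and P3H2 (0.965 each), and IL13RA1 by ITPRID2 (0.993), STK17B (0.989) and RPL10L (0.986). The number of genes with r over 0.9 was 17 for IL6, 21 for IL1A and 24 for IL1RAP, against 377 for IL1B.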

How the data were processed

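Total RNA of 7 PC-3-derived cultures was hybridised to 1-colour Affymetrix arrays. The deposited values are linear intensity signals per probe set, made by the authors with MAS5 per the submitters' processing notes (version not given in the sources used here). All 54675 probe sets were matched to the platform's gene table: 41097 name 1 gene, 1801 several and 11777 none, and only the first kind was used (a set naming CARD16 with CASP1 was left out). An offset of 46.942 was added before log2. Of the probe sets that passed the filter, that of highest mean stood for its gene. Contrasts were fitted across all 13618 genes with limma 3.58.1 in R 4.3.3 (lmFit, eBayes with an intensity trend, two-sided tests, Benjamini-Hochberg adjusted p under 0.05), and the fit was tested on simulated data. A model of 3 groups gave all contrasts except that of the 5 in vivo sublines together, which used 2 groups. No batch is named in the labels, and detection calls were not used here.

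The members and lists were chosen with earlier results of these data known. The text names the 10 members; the genes of each list that passed in a contrast of the 3 groups, up to 4, or the 2 of largest size where none passed; and the 3 genes of highest correlation with each member (5 for IL1B and IL13RA2). Further list genes and chromosomal neighbours were named after their values were seen. Alternatives changed the offset, filter, probe set summary, array scale, spread model, the group of JD1203.Lu, the shared parent and each array in turn. Promoter windows came from RefSeq (GRCh38.p14).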

Additional observations from a re-analysis of the deposited data

Results flagged for a closer look

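IL13RA2 drew attention because the PC-3-descended and TEM4-18-derived sublines differed from each other in it, by 2.95 on the log2 scale (SE 0.65). The signals were 511, 1550 and 768 in the former and 161 and 18.6 in the latter, with no overlap. The gene was chosen with this pattern known, so the difference is a description. GS683.LALN and JD1203.Lu lay on different sides of the mean of TEM4-18, at 1.32 and -0.34.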

How the results depend on the processing

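The number of arrays and, for NLRP3 and IL13RA2, signals near background in TEM4-18 limit these results. No paired analysis was possible because the labels give replicate numbers only to TEM4-18. With no offset, NLRP3 differed by 4.06 and IL13RA2 by 5.11 between PC-3-descended sublines and TEM4-18, and with the offset at the median by 1.37 and 1.88; with JD1203.Lu counted as PC-3-descended, IL13RA2 differed by 2.49. IL1B kept its direction in this contrast under every alternative run, and NLRP3 and IL13RA2 under every alternative that kept them. With the filter at the 60th percentile, NLRP3 and IL13RA2 were no longer among the genes tested. Over the arrays left out, the differences ran from 3.04 to 4.34 for IL1B, 2.25 to 3.24 for NLRP3 and 2.83 to 4.04 for IL13RA2. In the TEM4-18-derived sublines the ranges were -0.36 to 1.43 for IL1B and -0.34 to 1.32 for IL13RA2, and that of NLRP3 stayed at or above 2.05.

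Counts of called genes moved more; where nothing else is said, the cause was not tested. All 5 sublines against TEM4-18 gave 4 genes with no offset and 5 with median centring. PC-3-descended sublines against TEM4-18 gave 145 with GS689.Li and GS694.LAd averaged, which leaves fewer samples, 14 with JD1203.Lu moved and 158 with no intensity trend. TEM4-18-derived sublines against TEM4-18 gave 4 with JD1203.Lu moved and 3 with no trend, and the PC-3-descended against the TEM4-18-derived sublines gave 168, 47 and 130 under the same settings of averaging, moving and no trend. Leaving out each array in turn gave 0 to 14 genes for all sublines (14 without GS683.LALN), 31 to 925 for the PC-3-descended sublines (31 without TEM4-18 replicate 2, 925 without GS672.Ug), 2 to 142 for the TEM4-18-derived ones (2 without either TEM4-18 replicate, 142 without GS683.LALN) and 151 to 1142 between them (151 without GS694.LAd, 1142 without GS672.Ug).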
